A study of Caenorhabditis elegans with 2 samples.

Results

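The nuclear hormone receptor genes of Caenorhabditis elegans were examined for binding of HLH-30, a basic helix-loop-helix leucine zipper factor of the TFEB family. Members were all protein-coding genes of the WBcel235 gene models named nhr- followed by a number, which gave 269 of 19973 genes, 167 of them on chromosome V and 102 elsewhere. Chromatin came from whole hermaphrodites of strain OP433 at the late embryonic stage and was precipitated with an anti-GFP antibody in 2 biological replicates, with no other condition. The strain is mutant at unc-119 (tm4063, III) and carries the integrated transgene wgIs433, which makes HLH-30 with a C-terminal GFP-FLAG tag. The mutant background and the transgene were shared by both replicates, so neither was compared with its absence. A whole-animal preparation averages over all tissues of the embryo, so binding in fewer cells and weaker binding in each cell cannot be told apart. Coordinates are on ce11, which is WBcel235.

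Nuclear hormone receptors are transcription factors with a zinc finger DNA-binding domain and a ligand-binding domain, and many are switched by small lipophilic molecules. Nematodes hold far more of them than insects or vertebrates. A small set has clear counterparts in other animals, whereas most descend from an ancestor like the vertebrate receptor HNF4 and multiplied within nematodes, many in clusters on chromosome V. Well studied worm receptors control moulting, fat metabolism, diet responses and detoxification.

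The authors deposited an optimal list of 1959 peaks, a pooled list of 18832 peaks made from the reads of both replicates together, and lists of 11695 peaks for replicate 1 and 30000 for replicate 2. Each peak has a summit and the authors' own signal value, which is the same in the optimal and the pooled list. Its scale differs between these and each replicate list, and it was not compared across them. The pooled and replicate lists hold peaks and background, so presence in them is a weaker statement than presence in the optimal list. The optimal peaks are the highest-signal part of the pooled list, down to a signal of 47.7. A start peak is a peak whose summit falls in the start window of a gene, which covers 1000 bp before and 200 bp after each of its annotated starts. The lists hold no read totals, and the depth is unknown. Intervals on shares are exact 95% binomial intervals, which cover counting of genes only, and genes of a family are not replicates.

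In the optimal list 15 of the 269 receptor genes had a start peak, 5.58% (3.15 to 9.03%), against 6.63% of all protein-coding genes. The strongest were nhr-32, nhr-35, nhr-48 and nhr-1, all on the X chromosome. They were followed by nhr-66 (IV), nhr-49 (I), nhr-255 (X), nhr-59 (V), nhr-133 (V), nhr-34 (IV), nhr-190 (V), nhr-47 (V), nhr-56 (V), nhr-114 (V) and nhr-50 (V). Each of the 15 summits had a receptor start as its nearest annotated protein-coding start. A pair of these peaks, and no other of the 15, also fell in the start window of another gene, that of nhr-59 with fbxa-137 and that of nhr-47 with dnj-19.

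The DNA under several of the strongest of these peaks is shown because it carries the words that recur at HLH-30 summits. Each sequence is 101 bases centred on the summit, from RefSeq WBcel235, read 5′ to 3′ on the strand of the gene, and none overlaps an annotated UTR. Capitals mark the E-box words CACGTG and also CATGTG, the repeat words GAGAGA and also CACACA, the words CGTCTC and also ACGCAG, and the nuclear receptor binding word AGGTCA. A word is marked on either strand, and neighbouring words run together where they overlap.
nhr-32 (chrX:13251596-13251696, plus strand): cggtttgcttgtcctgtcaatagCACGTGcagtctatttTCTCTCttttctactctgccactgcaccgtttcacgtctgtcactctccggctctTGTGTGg
nhr-48 (chrX:15707521-15707621, plus strand): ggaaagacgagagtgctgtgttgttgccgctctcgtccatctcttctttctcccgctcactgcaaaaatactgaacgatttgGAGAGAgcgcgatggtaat
nhr-1 (chrX:17513726-17513826, plus strand): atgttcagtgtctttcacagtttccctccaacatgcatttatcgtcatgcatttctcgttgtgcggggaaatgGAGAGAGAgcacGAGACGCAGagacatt
nhr-66 (chrIV:8232572-8232672, minus strand): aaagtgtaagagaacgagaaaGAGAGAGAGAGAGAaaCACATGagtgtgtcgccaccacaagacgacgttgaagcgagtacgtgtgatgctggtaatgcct

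CACGTG, the E-box known for TFEB-family proteins, lay within 50 bp of 4 of the 15 receptor summits, 26.7%, against 21.8% of all 1959 optimal summits and 17.7% of the 1065 that lie in a start window. None of the 30 flanking windows of the same length, centred 500 bp to either side of these summits, held it. The share over the flanks of all optimal peaks was 2.19%, so few or none would be found in 30 windows. The 4 were nhr-32, nhr-34, nhr-133 and nhr-50. Their E-boxes are shown with 10 bases on either side, on the strand of the gene, so that the flanking bases can be compared. The first pair lies off chromosome V and the second pair on it, in annotated 5′ UTRs.
nhr-32 (chrX:13251609-13251634, plus strand): ctgtcaatagCACGTGcagtctattt
nhr-34 (chrIV:9672678-9672703, minus strand): atcgaaagacCACGTGatgtaacgct
nhr-133 (chrV:2212082-2212107, minus strand): atcgttctttCACGTGttttatgtat
nhr-50 (chrV:16000512-16000537, minus strand): tccccgtttcCACGTGattttccgac

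The E-box at nhr-50 held the summit itself, and those at nhr-34, nhr-133 and nhr-32 lay 11, 21 and 22 bp from it. None of the 15 windows held the longer site TCACGTGA, which contains CACGTG and lay at 6.02% of all optimal summits and 3.94% of those in a start window. CATGTG was present at another 4 receptor summits, those of nhr-35, nhr-66, nhr-59 and nhr-56, against 17.1% of all optimal summits and 14.6% of those in a start window. The nuclear receptor binding word AGGTCA was found only at the summit of nhr-114, 1 of 15, against 5.67% of all optimal summits and 5.35% of those in a start window. GAGAGA lay at 6 of the 15, against 588 of all 1959 optimal summits and 318 of the 1065 in a start window, and at 4 of the 30 receptor flanks. It was at 5 of the 8 receptor peaks off chromosome V, those of nhr-32, nhr-48, nhr-1, nhr-66 and nhr-49, and at 1 of the 7 on V, that of nhr-133. This split depends on the window. Within 100 bp of the summit GAGAGA was also at nhr-59, nhr-190 and nhr-47 on V and at nhr-35 off V. Of the receptor flanks that held it, 3 were on V and 1 off V. The split was not tested, and its share over all peaks on V and off V was not computed. A word that is present is a match of letters and not a shown binding site.

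Off chromosome V the receptors with a start peak included regulators of fat metabolism. The gene nhr-49 encodes an HNF4-like receptor that controls fatty acid desaturation, beta-oxidation and fasting responses. Its peak on I, 9869144 to 9869487, had a signal of 77.4 and rank 882 in the optimal list, with the summit 335 bp upstream of a start in intergenic sequence. In the replicates the matching summits had signals of 26.6 at rank 1012 in replicate 1 and 51.3 at rank 855 in replicate 2. The nhr-66 product is a partner of NHR-49 in the control of lipid genes. Its peak on IV, 8232450 to 8232793, had a signal of 107 and rank 510. The summit lay 784 bp upstream of one of its 7 annotated starts, inside an intron of the longer nhr-66 transcripts and within the antisense RNA gene anr-44. The signal was 26.3 at rank 1038 in replicate 1 and 80.2 at rank 391 in replicate 2. Both metabolic receptors were thus within the 1959 highest peaks of each replicate.

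The X-linked receptors carried the largest start peaks of the family. The nhr-32 peak (X, 13251556 to 13251708), 318 bp upstream of the start, had a signal of 255 at rank 109, with 98.3 at rank 89 in replicate 1 and 154 at rank 128 in replicate 2. The nhr-35 peak lay 407 bp upstream and had a signal of 216 at rank 151, with 66.3 at rank 201 and 146 at rank 134 in replicates 1 and 2. The gene nhr-48 is of the same conserved subfamily as daf-12 and nhr-8. Its summit, 642 bp upstream (X, 15707399 to 15707742), had a signal of 139 at rank 313, with 35.2 at rank 631 in replicate 1 and 108 at rank 234 in replicate 2. The nhr-1 peak (X, 17513604 to 17513947), 287 bp upstream, had 129 at rank 353, with 50.1 at rank 339 and 77.5 at rank 412. All of these summits were intergenic and ranked within the top 1000 of both replicate lists.

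The remaining start peaks off chromosome V were those of nhr-255 and nhr-34. The nhr-255 peak (X, 15741848 to 15742191) had a signal of 77.3 at rank 884, with 35.2 at rank 630 in replicate 1 and 44.6 at rank 1077 in replicate 2. It lay 34397 bp from nhr-48 by gene start and 14 bp from the noncoding RNA gene ZK678.11. Of the 24-base words within 100 bp of its summit, 33.7% occur again elsewhere in the genome, and its part in the signal was not tested. The same share was 0% at 12 of the other 14 receptor summits, 6.74% at nhr-190 and 1.12% at nhr-1. The nhr-34 peak (IV, 9672505 to 9672848) had a signal of 59.3 at rank 1367 and lay 7 bp upstream of one of 5 annotated starts, with 24.7 at rank 1174 in replicate 1 and 30.9 at rank 2025 in replicate 2.

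On the X chromosome 5 of 23 receptor genes had an optimal start peak, 21.7% (7.46 to 43.7%), against 8.20% of all X-linked protein-coding genes. On the other chromosomes off V it was 1 of 23 on I, beside 8.55% of all genes there, and 2 of 33 on IV, beside 6.10%. It was 0 of 15 on II, beside 5.91%, and 0 of 8 on III, beside 265 of 2640 genes. X was singled out after its values were seen, no test was made, and its interval reaches down below the share of all X-linked genes.

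**Figure D1:**
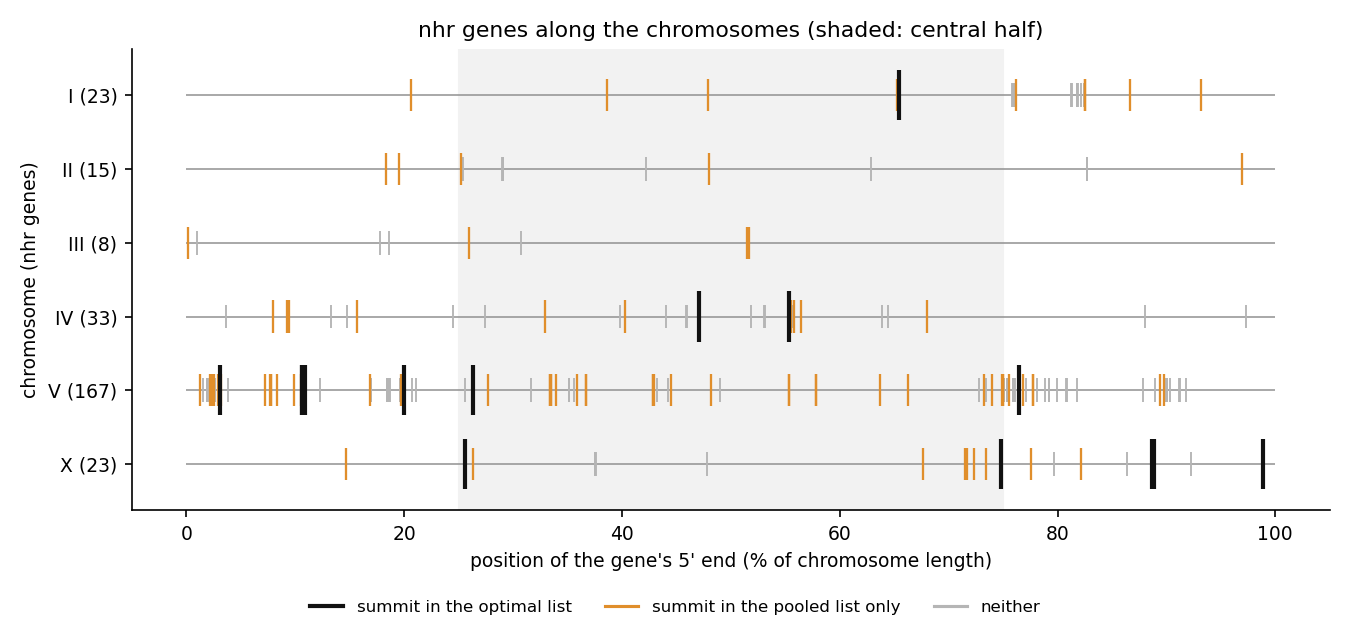
Positions of the 269 receptor genes along the 6 nuclear chromosomes, as the gene's 5′ end in percent of chromosome length, with black marks for genes with an optimal start peak, orange for a pooled start peak only and grey for neither. The 167 chromosome V genes crowd in both arms, and black marks are on 5 of 23 X genes and 7 of 167 V genes.

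Chromosome V copies had start peaks about as often as other genes of that chromosome. In the optimal list 7 of 167 had one, 4.19% (1.70 to 8.45%), against 3.70% of all protein-coding genes on V. Off V the count was 8 of 102, 7.84% (3.45 to 14.9%), against 7.60% of all genes there. The receptors on V thus had a lower share than the rest of the family, with intervals that overlap, and in both parts the share was near that of the surrounding genes. In the highest 1959 peaks of replicate 1 the counts were 17 of 269 over all, beside 6.93% of all genes, 7 of 167 on V, beside 4.16%, and 10 of 102 off V, beside 7.86%. In the highest 1959 of replicate 2 they were 16 over all, beside 6.15%, 6 on V, beside 3.28%, and 10 off V, beside 7.10%. The lower share on V was thus present in each replicate taken alone, for receptors and for all genes.

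Longer lists gave the same order with higher shares. In the pooled list 103 receptor genes had a start peak, 38.3% (32.5 to 44.4%), beside 33.0% of all genes. On V the count was 57, 34.1% (27.0 to 41.9%), beside 26.3% of all genes on V, and off V it was 46, 45.1% (35.2 to 55.3%), beside 35.3%. In the whole replicate 1 list the counts were 68 over all, beside 23.7%, 35 on V, beside 17.4%, and 33 off V, beside 25.8%. In the whole replicate 2 list they were 124, beside 43.1%, 71 on V, beside 35.9%, and 53 off V, beside 45.5%. Receptor shares were above those of all genes in each of these longer lists, on V and off it, and these lists include background. Each annotated start adds to the start window, and receptors more often had several starts. A single annotated start was present at 67.1% of receptors on V, beside 77.2% of all genes on V. Off V it was present at 60.8% of receptors, beside 72.5% of all genes there. The part of the number of starts in the higher receptor shares was not tested. Of the 269, 132 had no start summit in any of the 4 lists, 86 of them on V. That share was not computed over all genes. Neither whole replicate list held a start summit for 135 of the 269 receptors, beside 10487 of all 19973 genes.

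**Figure D2:**
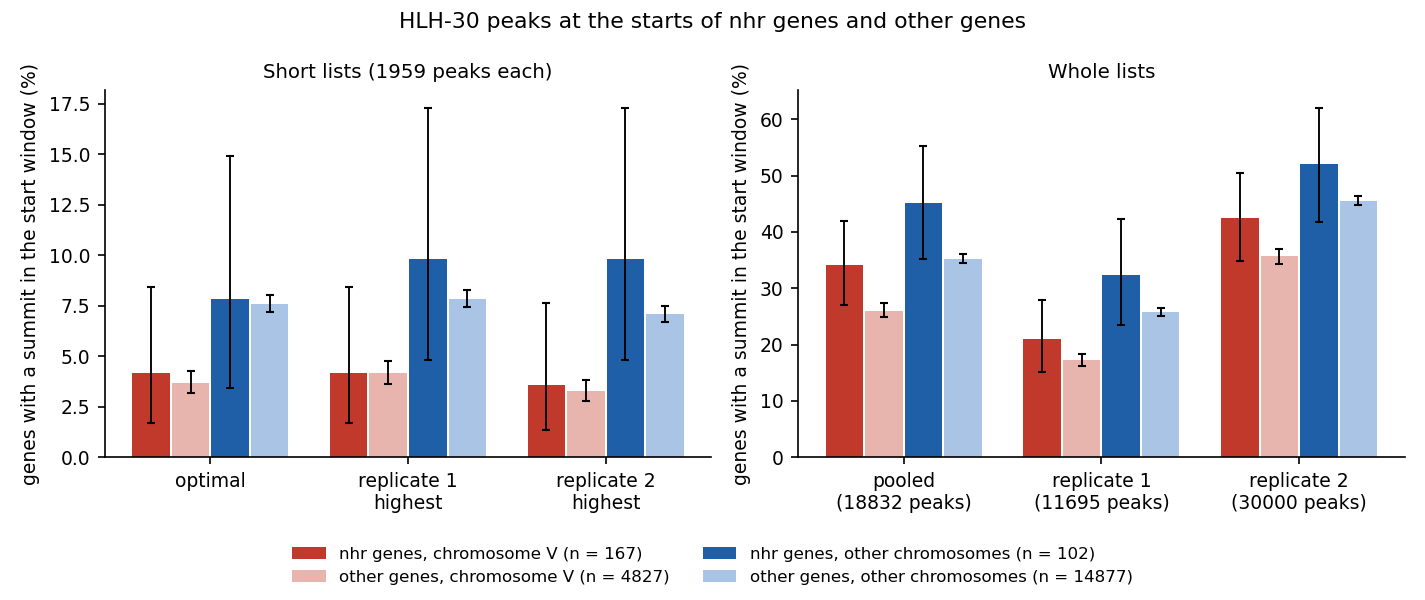
Percent of genes with a summit in the start window for receptor genes and other protein-coding genes on chromosome V and off it, in 3 lists of 1959 peaks (left) and 3 whole lists (right), with exact 95% binomial intervals as error bars. Receptors on V lie below receptors elsewhere in all 6 lists, and so do the other genes of V.

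The 7 start peaks on chromosome V had lower signals and sat closer to the start than those elsewhere. Their signals ran from 53.0 to 67.5 with a median of 57.2, all below 72.7, the median of the optimal list. Off V the signals ran from 59.3 to 255 with a median of 118, and 7 of 8 were above that median. The ranges overlap only through nhr-34, at 59.3. Among all genes with an optimal start peak the medians were 72.5 on V and 77.8 off V, and 48.6% of those on V were above the list's median. All 7 summits on V lay within 80 bp of an annotated start, with a median distance of 38 bp, whereas off V the distances ran from 7 to 784 bp with a median of 371 bp. Within 100 bp of a start were thus 7 of 7 receptor summits on V and 1 of 8 off V, beside 21.6% of all genes with a start peak on V and 15.2% of those off V. This contrast was noticed after the values were seen and was not tested.

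By annotation 4 of the 7 summits on V were in 5′ UTRs, 1 in a coding exon and 2 between genes, whereas off V 6 were between genes and 2 in introns. Over all genes with an optimal start peak, 9.73% of those on V were in 5′ UTRs and 74.1% between genes. Off V these shares were 5.71% and 79.4%. The closeness to starts was also present in the replicates, whose reads made the optimal list and which share these peaks with the optimal list. In the highest 1959 peaks of replicate 1, 5 of 7 receptors on V had their summit within 100 bp of a start and 2 of 10 off V, beside 21.6% and 16.9% of all genes with such a peak. In replicate 2 they were 6 of 6 and 1 of 10, beside 22.6% and 170 of 1064. Among pooled start peaks of genes with no optimal one, the counts were 17 of 50 on V and 7 of 38 off V, 18.4%, beside 19.7% of such genes on V and 19.9% off V. Receptors on V also had less room upstream than receptors off V, with medians of 1032 and 3422 bp to the next protein-coding gene. They did not have less than other genes, since the median was 944 bp for all genes on V and 936 bp for all genes. The part of this spacing in the distances was not tested.

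**Figure D3:**
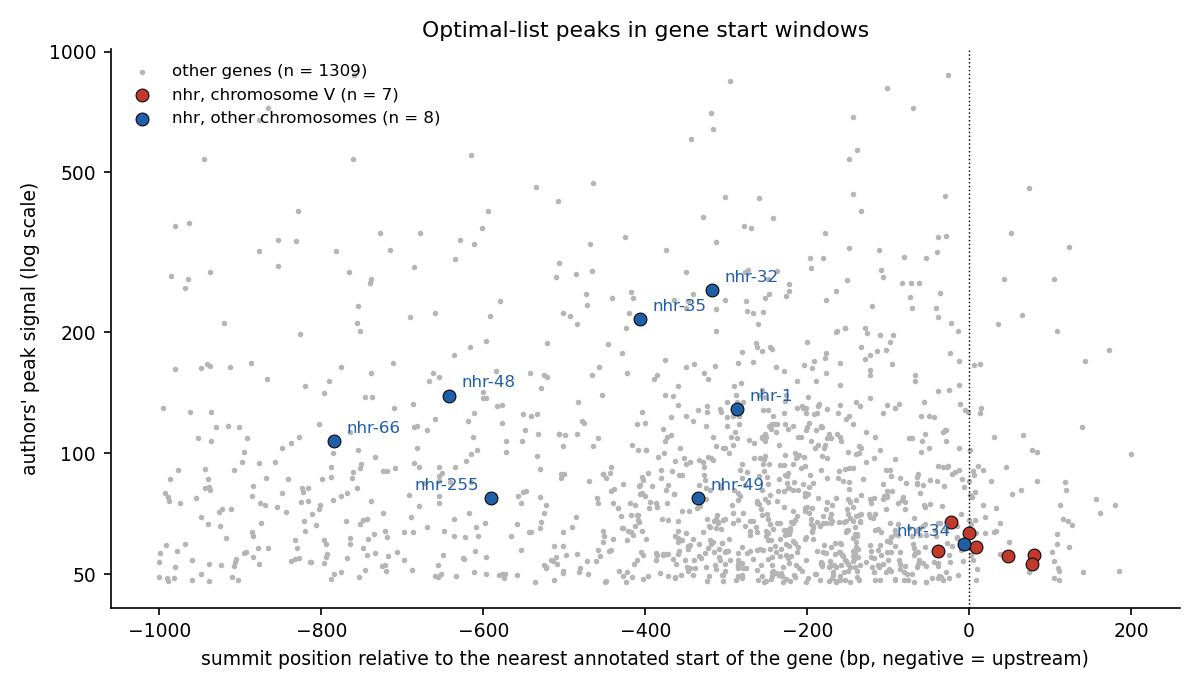
Signal of each gene's strongest optimal start peak (log scale) against the position of its summit relative to the nearest annotated start of the gene in bp, for 7 receptors on chromosome V (red), 8 off it (blue) and 1309 other genes (grey). The red points lie within 80 bp of the start at signals of 53.0 to 67.5, and the blue points other than nhr-34 lie 287 to 784 bp upstream.

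The named peaks on V were those of 7 receptors, of which nhr-114 is the best known. Its product protects the germ line in a way that depends on the bacterial diet. Its peak (V, 4187079 to 4187422), 48 bp downstream of the start in a coding exon, had a signal of 55.6 at rank 1525, with 19.8 at rank 1694 in replicate 1 and 36.9 at rank 1477 in replicate 2. The nhr-59 peak (V, 2278115 to 2278458), 22 bp upstream, had 67.5 at rank 1104, with 25.5 at rank 1098 and 39.3 at rank 1354. The nhr-133 peak (V, 2211946 to 2212289) had its summit at the annotated start and 63.2 at rank 1237, with 21.6 at rank 1484 and 42.0 at rank 1192. For these 3 genes both replicates placed the peak in their highest 1959.

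The other 4 included the genes on which the replicates differed most. The nhr-190 peak (V, 642744 to 643087), 8 bp downstream, had 58.5 at rank 1398 and 41.6 at rank 1215 in replicate 2, whereas its nearest summit in replicate 1 had 9.39 at rank 10338. Another replicate 1 summit in the same window, 63 bp upstream of the start, had 16.7 at rank 2359. The nhr-47 peak (V, 5505043 to 5505386), 38 bp upstream, had 57.2 at rank 1447 and ranked 805 in replicate 1, at 30.3, but 2321 in replicate 2, at 28.6. The nhr-56 peak (V, 2218912 to 2219255), 80 bp downstream, had 55.7 at rank 1519, with 22.4 at rank 1401 and 35.3 at rank 1614. The nhr-50 peak (V, 16000351 to 16000694), 78 bp downstream, had 53.0 at rank 1652, with 18.4 at rank 1957 and 33.8 at rank 1743. It was the member nearest above the optimal list's lowest signal of 47.7.

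All 15 start peaks had a summit within 100 bp in both replicate lists, and 12 of the 15 genes were also among the start peaks of the 1959 highest in each replicate. The exceptions were nhr-190, absent from those of replicate 1, and nhr-34 and nhr-47, absent from those of replicate 2. Of the receptors with a start peak in those short lists, 12 were shared, 70.6% of the 17 in replicate 1 and 12 of the 16 in replicate 2, beside 69.7% and 78.6% over all genes. Because both replicates' reads went into the optimal list, their overlap with it is no separate check of it.

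**Figure D4:**
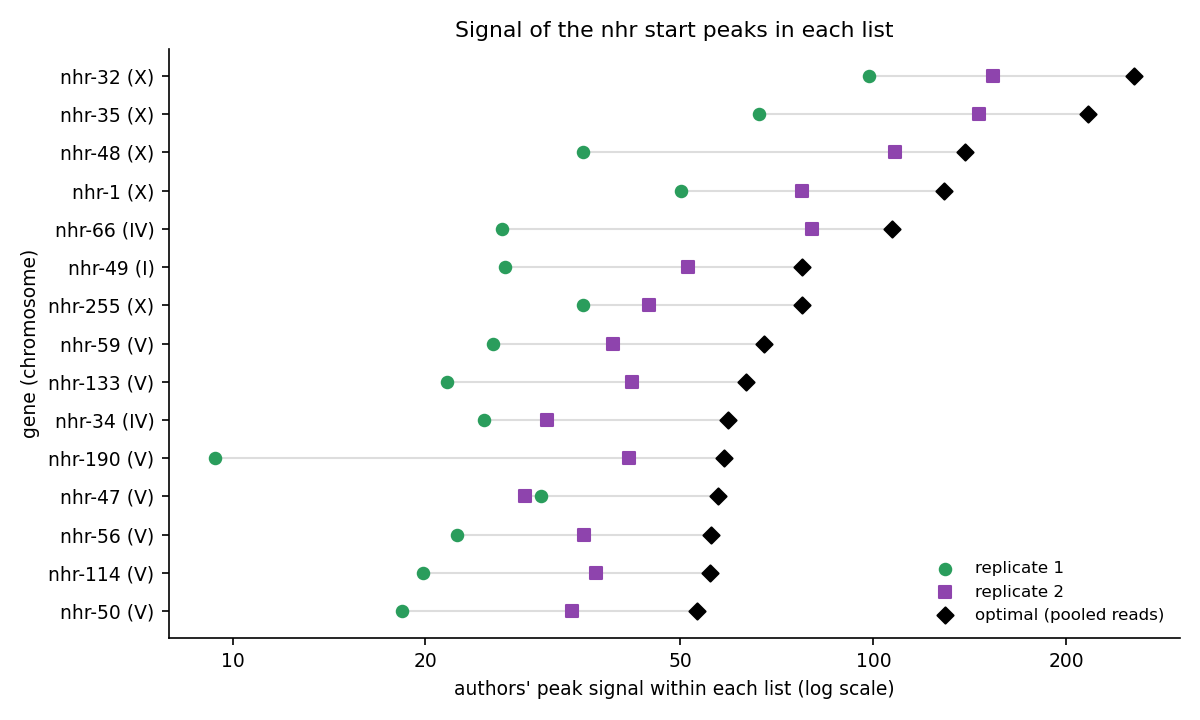
Authors' signal (log scale) of the 15 receptor start peaks in the optimal list (diamonds) and of the nearest summit within 100 bp in replicate 1 (circles) and replicate 2 (squares), 1 gene per line with its chromosome. The optimal scale and that of each replicate differ, and the order down the plot is that of the optimal signal, from 255 at nhr-32 to 53.0 at nhr-50.

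The peaks of nhr-133, nhr-56 and nhr-59 lay in 1 receptor cluster on the left arm. Between the 5′ ends of nhr-133 and nhr-59, a span of 66147 bp, are 25 protein-coding genes, of which 13 are receptors and several are cytochrome P450 genes of the cyp-33C group. Optimal start peaks were present at nhr-133, nhr-56 and nhr-59 and at no other gene of the span. In the pooled list nhr-134 and nhr-182 also had a start peak, at signals of 45.8 and 34.8, and the second of these also fell in the window of F41B5.12. Pooled start peaks were thus at 5 of the 13 receptors and at 8 of the 12 other genes of the span, some of which share a peak. The other receptors of the span, nhr-184, nhr-128, nhr-103, nhr-18, nhr-126, nhr-96, nhr-183 and nhr-275, had none. The span was singled out after its values were seen.

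Receptors on V lay in the chromosome arms more often than other genes there and close to each other. Of the 167, 66.5% started in the arms, taken as the parts outside 25 to 75% of the chromosome's length, beside 47.5% of all genes on V. The median distance to the next receptor start was 3200 bp on V and 34456 bp off V. Of the 7 with an optimal start peak 6 were in the arms, 5.41% of arm receptors, beside 2.66% of all V genes in the arms. In the centre it was 1 of 56, nhr-47, beside 4.65% of all V genes in the centre. In the pooled list the order was the other way, with 28.8% of arm receptors and 44.6% of central ones, beside 21.7% and 30.4% of all V genes, so the optimal list's order rests on few genes. Repeated 24-base words were counted in a single start window per gene, that of the gene model's 5′ end. Such windows with over 10% of repeated words were not more common at receptors on V than at those off it. They were found at 15.6% of receptors on V and 17.6% of those off V. Over all genes the shares were 20.9% on V and 18.0% off V.

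Of 11 conserved receptors, those with a known counterpart in insects or vertebrates, nhr-48 alone had an optimal start peak, beside 6.63% of all genes. In the pooled list 6 of 11 had a start peak, beside 33.0% of all genes, nhr-41 at 47.4, nhr-23 at 39.4, nhr-85 at 36.2, nhr-25 at 17.4 and nhr-6 at 12.6 beside nhr-48. The nhr-41 peak, at pooled rank 1978, was the nearest receptor below the optimal list's end, with 31.5 at rank 1943 in replicate 2. In replicate 1 the highest start summit of nhr-41 was a different one, of 14.9 at rank 3019. The gene nhr-23 encodes the worm counterpart of ROR, needed for moulting, and its pooled summit lay 956 bp upstream. Its highest signal was 10.6 at rank 7468 in replicate 1 and 34.1 at rank 1716 in replicate 2, at different summits. The gene nhr-85 encodes a counterpart of Rev-Erb and had 18.9 at rank 1841 in replicate 1 and 26.5 at rank 2686 in replicate 2. No start summit was in any list for nhr-8, nhr-67, nhr-91 or nhr-111, and nhr-239 had only one of signal 7.79 in replicate 2.

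Receptors of metabolism and stress responses had optimal start peaks at 3 of 16, nhr-49, nhr-66 and nhr-114, beside 6.63% of all genes. They had pooled ones at 12 of 16, beside 33.0%. The gene nhr-80, whose product controls fatty acid desaturases together with NHR-49, had a pooled signal of 17.9 at rank 10283, with none in replicate 1 and 12.3 at rank 9411 in replicate 2. The gene nhr-62, needed for long life under dietary restriction, had 25.9 at rank 5482, with 15.3 at rank 2863 and 9.98 at rank 12435. The hypoxia-induced nhr-57 had 24.3 at rank 6072, with 13.7 at rank 3750 and 9.84 at rank 12637. All of these were below the optimal list in the pooled reads and outside the highest 1959 of each replicate.

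Of the rest of the metabolic list, nhr-64 had a pooled signal of 37.2 and 34.6 at rank 1678 in replicate 2, but no start summit in replicate 1. The genes nhr-10 and nhr-68, whose products control the propionate breakdown shunt, had pooled signals of 15.1 and 15.4. Those of nhr-13, nhr-45 and nhr-86 were 13.8, 18.6 and 13.9. No pooled start summit was present for nhr-14, nhr-28, nhr-69 or nhr-79.

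None of the 8 receptors listed for development had an optimal start peak, beside 6.63% of all genes, and 6 had a pooled one, beside 33.0%. Beside nhr-23, nhr-85, nhr-25 and nhr-6 these were nhr-40 at 33.7, ranked 8096 in replicate 1 and 4361 in replicate 2, and nhr-2 at 26.7. The highest start summits of nhr-2 ranked 5161 in replicate 1 and 4371 in replicate 2. That of replicate 1 was a different summit, farther upstream than the pooled one. The gene nhr-60 had a start summit in replicate 2 alone, at 12.6, and nhr-67 had none. The other strong receptors below the optimal list were nhr-134, nhr-44 and nhr-90, all on V, at pooled signals of 45.8, 42.2 and 39.3. Their summits lay 85, 234 and 87 bp upstream of the start.

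Introns held further optimal peaks that the start window does not count, and these were on genes off chromosome V. Of the 102 receptors there, 7 had an optimal summit between the ends of the gene outside their own start window, 6.86% (2.80 to 13.6%), beside 2.30% of all genes off V. On V the count was 0 of 167 (upper bound 2.18%), beside 0.961% of all genes on V. Median gene length was 2146 bp for receptors on V and 3143 bp for those off V, against 1754 and 2160 bp for all genes, and its part in these shares was not tested. The strongest was in nhr-19 (II, 9603495 to 9603734), 1919 bp from the gene's 5′ end. Its signal of 286 at rank 86 exceeded those of all 15 start peaks, with 107 at rank 74 in replicate 1 and 180 at rank 95 in replicate 2. The same gene held 2 weaker peaks, both of signal 65.1. Single intronic peaks were in nhr-17 at rank 199, nhr-3 at rank 454, nhr-31 at rank 1405, nhr-14 at rank 1699 and nhr-46 at rank 1901. These genes were named after their values were seen.

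Intronic CACGTG words lay in nhr-34 and nhr-31, and CATGTG at the intronic peak of nhr-14 and at the weakest of nhr-34. The intronic peaks of nhr-19, nhr-17, nhr-3 and nhr-46 held neither word. Over all optimal summits the shares were 21.8% for CACGTG and 17.1% for CATGTG. The gene nhr-34 had 3 intronic peaks beside its start peak, at signals of 103, 70.7 and 49.8, and the first and second held CACGTG. Both replicates had these, with 37.4 and 27.3 in replicate 1 and 67.6 and 41.1 in replicate 2. NHR-31 is known to control vacuolar ATPase genes in the excretory cell. Its intronic peak (IV, 8028354 to 8028697) held the word at 2 places, with a signal of 17.1 at rank 2262 in replicate 1 and 39.6 at rank 1327 in replicate 2. The words are shown as above, in the order of the signals, and the first is the only one within TCACGTGA.
nhr-34 (chrIV:9670202-9670227, minus strand): atctcttcgtCACGTGacactcacta
nhr-34 (chrIV:9671255-9671280, minus strand): tcagtagtgcCACGTGgtgtctctct
nhr-31 (chrIV:8028508-8028533, minus strand): agtgaagaggCACGTGacaagatgcg
nhr-31 (chrIV:8028551-8028576, minus strand): gtaaccctgcCACGTGgaaactttga

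The first nhr-34 word held the summit, the second lay 6 bp from its summit, and those of nhr-31 lay 3 and 35 bp from theirs. With introns included, 14 of 102 receptors off V had an optimal peak at the start or inside the gene, 13.7%, beside 9.51% of all genes there. On V the count stayed at 7 of 167, 4.19%, beside 4.47% of all genes.

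Receptors with other names had an optimal start peak at 0 of 5, beside 6.63% of all genes and 8.20% of those on X, where most of the 5 lie. The gene sex-1, a receptor gene of X chromosome counting, had a pooled peak at rank 12506. The dafachronic acid receptor gene daf-12 and the olfactory neuron gene odr-7 had a start summit in replicate 2 alone, at 6.15 and 6.13. No start summit was in any list for unc-55 or fax-1.

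Among genes that work with the receptors, 2 of 7 had an optimal start peak, beside 6.63% of all genes, and both were coregulators. The gene din-1, which encodes a corepressor that binds DAF-12, had a signal of 272 at rank 97, with 77.0 at rank 152 and 190 at rank 84 in replicates 1 and 2. The histone acetyltransferase gene cbp-1 had 293 at rank 82, with 80.2 at rank 139 and 220 at rank 59. Both exceeded every receptor start peak. The Mediator subunit gene mdt-15, the corepressor gene gei-8 and the dafachronic acid synthesis genes daf-9, daf-36 and dhs-16 had no start summit in any of the 4 lists.

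Known targets of the metabolic receptors were set beside the same shares of all genes, 6.63% in the optimal and 33.0% in the pooled list. Of 4 targets of NHR-49, the desaturase gene fat-6 had an optimal start peak of signal 62.2 at rank 1277 and the acyl-CoA synthetase gene acs-2 one of 61.8 at rank 1287, whereas fat-5 and fat-7 had no start summit in any list. Both peaks ranked within the highest 1959 of each replicate, with fat-6 at 1230 and 1449 and acs-2 at 1296 and 1527. Of 5 propionate shunt genes, alh-8 had an optimal start peak of 105 at rank 528. The pooled list added hach-1 at 37.8, hphd-1 at 20.2 and ech-6 at 16.2, and acdh-1 had none.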

How the data were processed

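Chromatin immunoprecipitation of GFP-tagged HLH-30 was sequenced in 2 biological replicates forming 1 group. Description files deposited beside the lists derive peaks and background from the alignments of each replicate, and of both together, and name the optimal list as thresholded by irreproducible discovery rate. The labels name a control experiment, which is not analysed here. Not given in the sources used here were the aligner, peak caller, versions and cut-offs. The deposited signal of each peak is the authors' own. The deposited −log10 q-values were not used to rank peaks. Only ce11 lists were used, with Ensembl 115 gene models and RefSeq sequence of WBcel235, the same assembly.

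Summits were column 2 plus column 10 and are given counting from 1. Lists were matched within 100 bp, and either strand was searched for each word up to 50 bp from the summit. Shares carry exact 95% binomial intervals (scipy 1.17.1, Python 3.11.15). Because members share peaks and there is a single condition, no test was made, and members are set beside all protein-coding genes. The assignment of summits to genes was tested on planted summits. Members, lists and words were chosen with earlier results of these data known. Every member with an optimal start peak was named, then the role lists and the 5 strongest of the rest. A planned count of DNA-binding domain residues was not made. Alternatives were other lists, windows, starts and tolerances. All values assume that a replicate is a separate culture, which the labels do not detail. Sequences are shown for some start peaks, and the others are not reported here.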

Additional observations from a re-analysis of the deposited data

How the results depend on the processing

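The 15 receptor genes, 7 on V and 8 off it, became 103, 57 and 46 in the pooled list. When only the stronger part of the optimal list, above its median signal, was kept, they became 7 in all, 0 on V and 7 off V, beside 3.61%, 1.80% and 4.21% of all genes. A start window of 500 bp before and 100 bp after the start gave 5 off V, 4.90%, beside 5.65% of all genes there. In the highest 1959 peaks of a single replicate, which leaves out the other, the counts were 16 to 17 in all, 6 to 7 on V and 10 to 10 off V. The 4 start peaks with CACGTG became 2 within 25 bp of the summit, 20 in the pooled list, where more peaks entered, and 3 to 4 with a replicate left out. The cause of the other shifts was not tested. As a share of receptor start peaks, those with CACGTG were fewer in the pooled list than in the optimal list. The pooled share was close to that of all pooled peaks. Within 25 bp, and with replicate 1 left out, the receptor share was below that of all peaks. With replicate 2 left out it was above that of all peaks. A start window of 2000 bp before and 500 bp after, the nearest gene only, the gene model's 5′ end only and the addition of receptors with other names kept each gene count within 1.5 times. So did summit tolerances of 50 and 200 bp for the match to replicates. No paired analysis was possible because the series has 1 group. Unknown read depth limits what an absent peak shows.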
